A study of Mus musculus with 6 samples.

Results

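The myeloid C-type lectin receptors are cell surface proteins of macrophages, monocytes, neutrophils and dendritic cells. The listed genes were Clec4d, Clec4e, Clec4n, Clec7a, Clec4a1, Clec4a2, Clec4a3, Clec5a and Clec12a, 9 in all, and every probe on the array whose annotation was a RefSeq transcript of one of them was examined. A probe was matched for 8 of the 9 genes, 1 probe each, and 5 of them were bright enough to be tested among 15307 genes. They were selected on the measured log2 difference between Zip13-KO and WT tissue on these arrays, so that difference is given here as a description and not as a finding.

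RNA came from the inguinal white adipose tissue (iWAT), a subcutaneous fat depot, of WT and Zip13-KO mice aged 10 weeks, with 3 samples per genotype and 1 array per sample. The Zip13-KO mice lack exons 6 to 8 of Slc39a13, the gene of the zinc transporter ZIP13, in every cell of the body, with a Neo cassette in their place. The WT mice were littermates, mice of both genotypes were backcrossed to C57BL/6J for at least 7 generations, and all ate powdered food. The sources used here do not state which of the study's diets the mice on the arrays received, nor that each array carried a different animal. The p values below therefore measure the spread between these samples, part of which may be technical.

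C-type lectin receptors bind sugars and lipids of microbes and of dying cells. The activating receptors carry no signalling motif of their own or only a short one, and most of them pair with the adaptor Fcer1g or Tyrobp, which recruit the kinase Syk and, through Card9, switch on cytokine and chemokine genes. The inhibitory receptors hold a motif in their tail that recruits phosphatases. In white fat, macrophages are the best known carriers of these receptors.

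The array is of the 1-colour kind, so each spot reports how much of 1 labelled transcript it bound. Values are log2 of the scanner's processed signal, quantile normalized between the 6 arrays, and the level of one probe is not comparable with that of another. A spot was called well above background by the scanner's software, and a probe was kept when this held on all 3 arrays of at least 1 genotype. Spots that passed made up 62.5% to 63.2% of each WT array and 58.8% to 60.4% of each Zip13-KO array, with 0 saturated. All arrays lay on 1 slide, where the 3 WT arrays and Zip13-KO replicate 1 shared the first number of the slide position and Zip13-KO replicates 2 and 3 had another. Slc39a13 itself read 11.29, 10.87 and 10.72 in WT and 6.76, 6.66 and 6.47 in Zip13-KO iWAT, a difference of -4.33 on the log2 scale (standard error 0.17, limma adjusted p = 0.00128). Whether its probe lies inside the deleted exons is not known here. A gene was called when its adjusted p (Benjamini-Hochberg) was under 0.05 and its log2 difference exceeded 0.58, which is 1.5-fold, in either direction. This called 1576 genes higher in Zip13-KO iWAT and 1282 lower, and without Zip13-KO replicate 1 these counts were 955 and 767, without Zip13-KO replicate 2 1016 and 784.

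Clec4d, Clec4e, Clec4n, Clec4a1 and Clec4a3, the 5 tested receptors, each had less signal in Zip13-KO iWAT, by 3.15-fold to 19.6-fold. All were called, against 8.38% of all genes tested called lower, and for all of them the 3 Zip13-KO arrays lay below the 3 WT arrays, which held for 25.9% of all genes (29.2% lay the other way). Because the list was drawn up with this contrast known, nothing is read from these counts. Each of the 5 was well above background on all 6 arrays, so the filter on dim probes would have kept it from either genotype alone. The median of their log2 differences was -1.89, beside -0.00 for all genes tested. In bulk tissue, fewer cells of a type and less RNA per cell cannot be told apart. With the first number of the slide position as a block, a fit in which the genotype difference rests on Zip13-KO replicate 1 alone, 0 of the 5 receptors and 7 of all genes were called lower. The differences of the 5 receptors in that fit were -4.52, -3.11, -1.66, -1.87 and -1.68 in the order named.

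**Figure D1:**
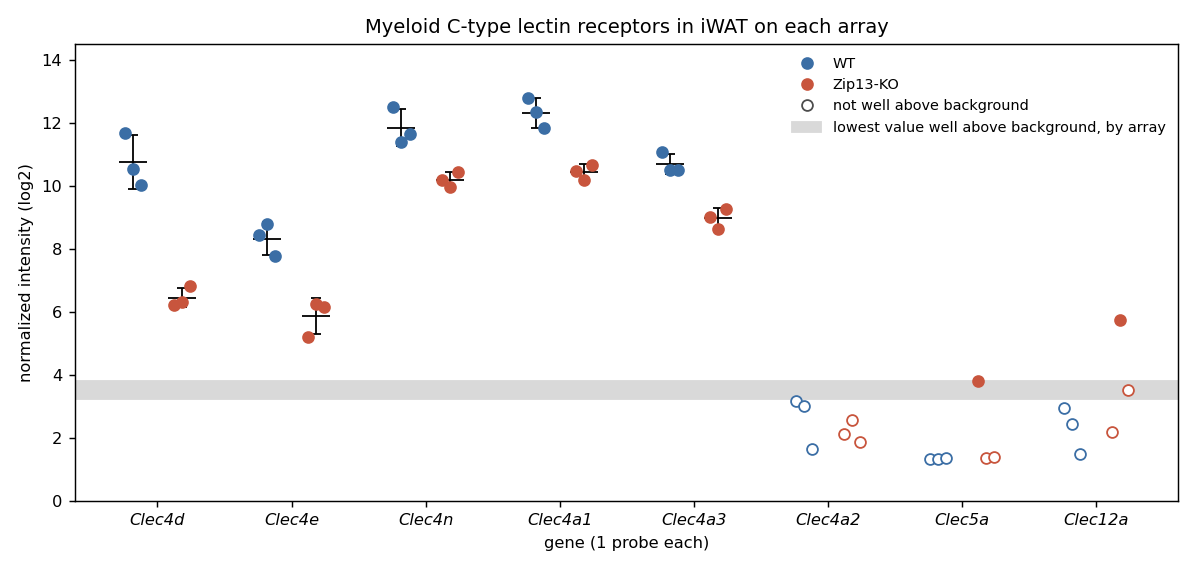
Normalized log2 intensity of the 8 receptor genes with a probe, 1 point for each array, WT in blue and Zip13-KO in red, with the mean and the SD (n = 3) as bars for the 5 tested genes. Open points were not well above background, and the grey band spans, over the 6 arrays, the lowest value that passed as well above background, from 3.22 to 3.80. The tested receptors lie above the band on every array, with the Zip13-KO points below the WT points, and for the other 3 genes 2 of 18 points are filled.

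Clec4d and Clec4e, the receptors also called MCL and Mincle, pair with Fcer1g and bind the glycolipids of mycobacterial cell walls. Mincle also senses material released by dead cells, and MCL is known to raise the amount of Mincle on the cell surface. Clec4d had the largest difference of the listed receptors and, by fitted values, the fifth largest fall of all genes tested. Clec4d read 11.69, 10.52 and 10.02 in WT against 6.23, 6.32 and 6.80 in Zip13-KO iWAT. The lowest WT array lay 3.22 above the highest Zip13-KO array, and WT replicate 1 stood above the other two WT arrays. The means were 10.74 ± 0.85 (SD, n = 3) and 6.45 ± 0.31 (SD, n = 3), a difference of -4.29 (standard error 0.43), or 19.6-fold lower. On the scanner's own scale the processed signal of Clec4d was 3346, 1593 and 1129 intensity units in WT and 68.2, 74.4 and 104 in Zip13-KO iWAT. The raw spot was 33.5 to 72.2 times its local background in WT and 2.69 to 4.23 times in Zip13-KO iWAT, so the lower level was measured close to background. From the raw median signal in place of the processed signal, the difference was -3.54 with normexp, another background correction, and -3.75 with none.

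Clec4e read 8.44, 8.77 and 7.76 in WT and 5.21, 6.24 and 6.15 in Zip13-KO iWAT. The genotypes were separated by 1.52, with WT replicate 2 the highest array and Zip13-KO replicate 1 the lowest. The means were 8.32 ± 0.52 (SD, n = 3) and 5.87 ± 0.57 (SD, n = 3), a difference of -2.46 (standard error 0.36), or 5.49-fold lower. Its processed signal was 237 to 482 intensity units in WT and 33.5 to 70.5 in Zip13-KO iWAT, where the raw spot was 2.42 to 3.03 times its local background. From the raw median signal, its difference was -1.69 with normexp and -1.87 with no background correction.

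The genes of Clec4d and Clec4e are neighbours on chromosome 6, and their start sites are shown because both have the largest differences and are read from opposite strands. The 250 bases before the start of Clec4d (GRCm38.p6, chr6:123261857-123262106, plus strand), of Clec4e (chr6:123289872-123290121, minus strand) and, for contrast, of Clec4a1 (chr6:122921598-122921847, plus strand) are given 5′ to 3′ from RefSeq, with motif matches in capitals.
Clec4d: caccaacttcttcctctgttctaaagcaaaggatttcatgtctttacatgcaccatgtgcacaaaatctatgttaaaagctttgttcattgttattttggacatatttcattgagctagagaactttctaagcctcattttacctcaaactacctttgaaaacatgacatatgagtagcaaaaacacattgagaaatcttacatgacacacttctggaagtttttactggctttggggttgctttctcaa
Clec4e: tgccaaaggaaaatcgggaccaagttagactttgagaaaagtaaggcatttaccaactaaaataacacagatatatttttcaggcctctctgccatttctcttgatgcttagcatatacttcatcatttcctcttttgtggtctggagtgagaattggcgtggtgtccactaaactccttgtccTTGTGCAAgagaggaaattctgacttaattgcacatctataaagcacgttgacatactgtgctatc
Clec4a1: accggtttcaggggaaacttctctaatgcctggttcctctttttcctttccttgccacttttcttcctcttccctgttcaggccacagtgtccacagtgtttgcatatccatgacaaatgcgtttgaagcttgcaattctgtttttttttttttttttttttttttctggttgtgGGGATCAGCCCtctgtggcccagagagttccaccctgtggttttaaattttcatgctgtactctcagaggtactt
The letters searched on both strands were TTGCNNAA for C/EBP factors, GAGGAAGT for PU.1, TGANTCA for AP-1 and, for kappa B, GGG and CC with any 5 bases between them. Of the 9 receptor genes, 8 had a window in the RefSeq table, and Clec4n is named only. The C/EBP letters stood 66 to 59 bases before the start of Clec4e, as TTGTGCAA, which reads TTGCNNAA on the other strand, and 140 to 133 bases before that of Clec12a. They were in 9.56% of all 32851 windows of this length. The kappa B letters, in 45.8% of all windows, were found in a pair of overlapping matches 75 to 65 bases before the start of Clec4a1. AP-1 letters, in 6.75% of windows, were found for Clec12a alone among the receptors, and PU.1 letters, in 2.44%, for none of the 8. None of the 4 motifs was found before the start of Clec4d, which says only that these letters are not in that window.

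Clec4n, also called Dectin-2, binds fungal mannans and pairs with Fcer1g. It read 12.51, 11.38 and 11.63 in WT and 10.18, 9.95 and 10.43 in Zip13-KO iWAT. All Zip13-KO arrays were lower by at least 0.95, and WT replicate 1 was again the highest. The means were 11.84 ± 0.59 (SD, n = 3) and 10.19 ± 0.24 (SD, n = 3), a difference of -1.65 (standard error 0.30), or 3.15-fold lower. At a stricter adjusted p under 0.01 it was the one tested receptor not called.

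Clec4a1 and Clec4a3 encode DCIR4 and DCIR3, relatives of the inhibitory receptor DCIR that lack its inhibitory motif. Clec4a1 read 12.79, 12.34 and 11.84 in WT and 10.46, 10.17 and 10.67 in Zip13-KO iWAT. The genotypes were separated by 1.16, and the 3 WT arrays were spread over 0.95. The means were 12.32 ± 0.48 (SD, n = 3) and 10.43 ± 0.25 (SD, n = 3), a difference of -1.89 (standard error 0.26), or 3.70-fold lower. Clec4a3 read 11.06, 10.52 and 10.50 in WT and 9.02, 8.63 and 9.26 in Zip13-KO iWAT. It had the tightest WT values of the 5, over 0.56, and a gap of 1.24 between genotypes. The means were 10.69 ± 0.32 (SD, n = 3) and 8.97 ± 0.32 (SD, n = 3), a difference of -1.72 (standard error 0.22), or 3.30-fold lower. Across the 5 receptors, WT replicate 1 was the highest WT array for all but Clec4e, and WT replicate 3 the lowest for all but Clec4n.

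The other 4 listed genes gave no comparison. Clec7a, the beta-glucan receptor Dectin-1, had no probe annotated with its RefSeq transcripts among those examined, and no value is given for it. Clec4a2, the gene of the inhibitory receptor DCIR, has 6 RefSeq transcripts, 1 of which the probe is annotated with. That probe was not well above background on any array, and its processed signal was 3.38 to 9.52 intensity units. Clec5a, the receptor MDL-1 that pairs with Tyrobp and Hcst, was well above background on Zip13-KO replicate 1 alone, where it read 3.80, against 1.32 to 1.38 on the other 5 arrays. Clec12a, the inhibitory receptor MICL, was well above background on Zip13-KO replicate 2 alone, at 5.75, against 1.49 to 3.51 on the others. With 1 array each, neither gene had a level in a genotype, and no fold is given.

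The 5 tested receptors all lie in a run of 9 consecutive protein-coding genes of the Clec4 family on chromosome 6, in the order Clec4a1, Clec4a3, Clec4a4, Clec4b1, Clec4a2, Clec4b2, Clec4n, Clec4d and Clec4e in the RefSeq table. Of the run, 7 genes were tested, the 5 receptors selected on this difference and 2 that were not listed, and both of these were called lower, beside 8.38% of all genes. Clec4a4, the gene of the inhibitory receptor DCIR2, fell by 1.55 on the log2 scale (standard error 0.24, limma adjusted p = 0.00855). Clec4b1, the gene of the activating receptor DCAR, fell by 1.03 (standard error 0.26, limma adjusted p = 0.0289). It had 2 kept probes, and its value is that of the brightest. Of the C-type lectins outside the list, 6 were called lower, and 5 with the mean of the probes of a gene. Clec4b1 was the only one of the 6 with more than 1 kept probe, so its call depends on the probe. Clec4a2 and Clec4b2, in the middle of the run, were not tested. These genes are close in sequence, and whether a probe also binds a neighbour's transcript could not be checked, since no probe sequences were used here.

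**Figure D2:**
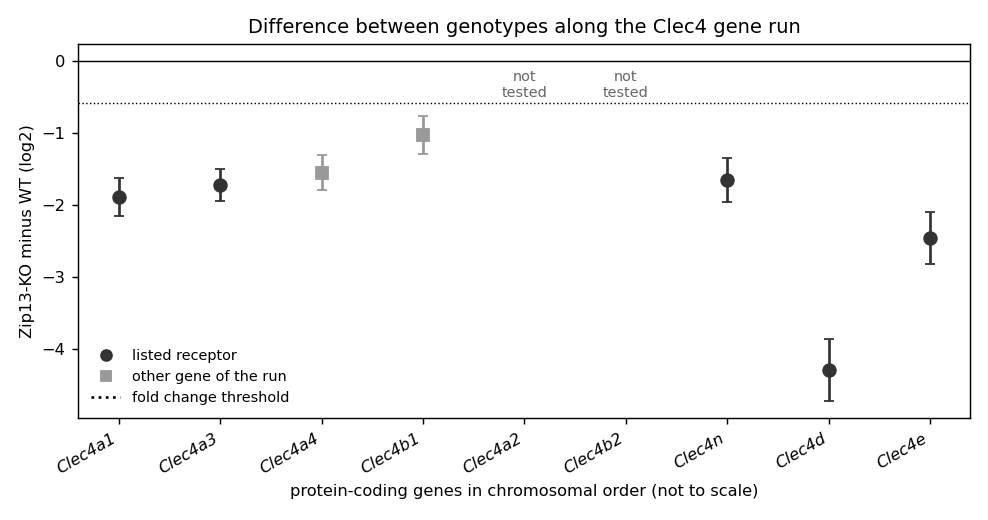
Difference between Zip13-KO and WT iWAT (log2) for the 9 genes of the Clec4 run in chromosomal order, spaced evenly and not to scale, with standard errors as bars. Listed receptors are circles, other genes of the run are squares, and the dotted line marks the fold change threshold of -0.58. All 7 tested genes lie below the line, from -1.03 for Clec4b1 (the brightest of its 2 kept probes) to -4.29 for Clec4d.

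The profiles of the receptors over the arrays were compared with those of all tested genes. Likeness was measured as the root mean square log2 difference between 2 genes over the 6 arrays, each relative to its WT mean, so that a smaller value is more alike. The profile most like that of Clec4d was Fpr1, a receptor for formyl peptides of bacteria (0.390). Slc39a13, the targeted gene, was also among the 3 nearest (0.415), with a difference of like size, -4.33 beside -4.29 for Clec4d. The nearest listed receptor to Clec4d was Clec4e, at rank 50 of all genes and a distance of 1.40. For Clec4e the nearest genes were Tmem171 (0.236), Il1rn, the interleukin-1 receptor antagonist (0.270), and the inhibitory receptor gene Lilrb4a (0.338), and the nearest listed receptor was Clec4a1 at rank 46 (0.598).

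The remaining 3 receptors lay closer together. Clec4n was most like Lgmn, a lysosomal protease (0.108), Nt5dc2 (0.115) and Lst1 (0.143), with Clec4a3 at rank 8 (0.182). Clec4a1 was most like the interferon-induced genes Oas1a (0.0953) and Oas1f (0.104) and Slc11a1, a metal transporter of the phagosome (0.112), with Clec4a3 at rank 19 (0.195). Clec4a3 was most like Alox5ap, which serves leukotriene synthesis (0.0937), Brip1 (0.0977) and Lst1 (0.114), with Clec4n at rank 16 (0.182). This likeness rests mainly on the size of the difference between genotypes, and these neighbours ranged from -1.62 for Nt5dc2 to -1.91 for Oas1a.

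Macrophages carry these receptors, and macrophage markers were lower on the Zip13-KO arrays too. Of the 14 markers in the list, all were tested, 11 were called lower and 0 higher, beside 8.38% and 10.3% of all genes. All 14 had a difference below 0, and the median was -1.31. Fcgr1, the high-affinity IgG receptor, fell by 2.57 (standard error 0.16, limma adjusted p = 0.00292). Cd68, a lysosomal protein, fell by 1.87 (standard error 0.28, limma adjusted p = 0.00776). Adgre1, which encodes F4/80, fell by 1.64 (standard error 0.29, limma adjusted p = 0.0110). Those not called were Cd163 at -0.56 (adjusted p = 0.0736), Mertk at -0.55 (adjusted p = 0.172) and Itgam at -0.17, by limma. Itgam had 3 kept probes, and its value is that of the brightest. With the mean of the probes of a gene, 12 of the 14 markers were called lower. Cd163 and Mertk had 1 kept probe each and stayed under the fold change threshold, so the call of Itgam depends on the probe. The intensities of the 14 markers summed to between 102103 and 164207 on the WT arrays and between 46905 and 62834 on the Zip13-KO arrays, with no marker below background, and the mean sum was 2.35-fold lower. Such a sum adds the brightness of different probes, so it follows the brightest of them and serves only to set arrays beside each other. The same sum over the 5 tested receptors was 9538 to 18688 in WT and 2694 to 3809 in Zip13-KO iWAT, 4.07-fold lower. With slide position as a block, 0 macrophage markers were called.

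The median macrophage marker, relative to its WT mean, was 0.36, -0.06 and -0.23 on the 3 WT arrays and -1.38, -1.48 and -1.02 on the 3 Zip13-KO arrays. After this median was subtracted array by array, Clec4d lay between -0.49 and 0.58 in WT and between -3.14 and -2.92 in Zip13-KO iWAT, a remaining difference of -2.98. Clec4e lay between -0.34 and 0.51 in WT and between -1.74 and -0.61 in Zip13-KO iWAT, a remaining difference of -1.14. The remaining difference was -0.57 for Clec4a1 and -0.41 for Clec4a3. For these 4 receptors the Zip13-KO arrays stayed below the WT arrays, which held for 0.66% of all genes after a subtraction that raises every gene alike on the Zip13-KO arrays. It also held for 2 of the 14 macrophage markers themselves, Fcgr1 with a remaining difference of -1.25 and Cd68 with -0.55, and the markers ran up to 1.15 for the brightest probe of Itgam. For Clec4n, at -0.34, the genotypes overlapped, with WT arrays from -0.40 to 0.31 and Zip13-KO arrays from -0.41 to -0.29. These remainders come from the contrast that the list was drawn from and carry no test, and the part of macrophage number in them was not tested.

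**Figure D3:**
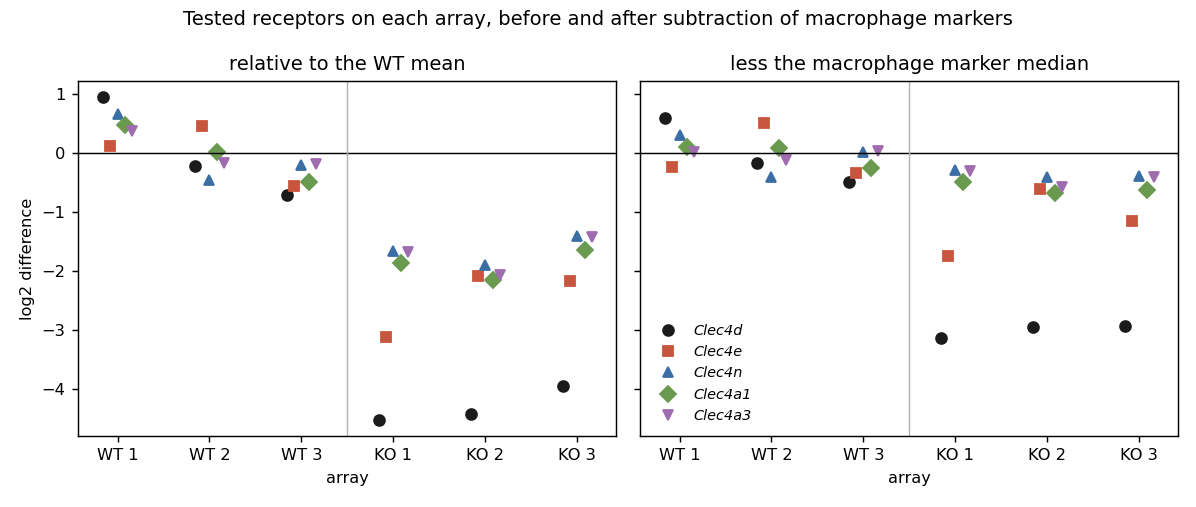
Log2 intensity of the 5 tested receptors on each array relative to the WT mean of the gene (left), and the same after subtraction of the median macrophage marker on that array (right). Each symbol is 1 receptor on 1 array, WT arrays left of the grey line and Zip13-KO arrays (KO) right of it. After subtraction Clec4d stays at -2.92 or lower on the Zip13-KO arrays, while the points of Clec4n overlap between genotypes.

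Monocytes and neutrophils carry these receptors too. Of 7 tested monocyte markers, 7 were called lower, beside 8.38% of all genes, with a median of -1.29. The largest falls were Chil3 at -2.77 (standard error 0.19, limma adjusted p = 0.00327) and Plac8 at -1.90 (adjusted p = 0.00788). Next came the matrix proteoglycan gene Vcan at -1.59 (limma adjusted p = 0.0264). The sum of the monocyte markers was 58646 to 121252 in WT and 32720 to 41314 in Zip13-KO iWAT, of which Fn1, the fibronectin gene, made up 50.7%. Without Fn1 the sum was 33011 to 57627 in WT and 14912 to 19516 in Zip13-KO iWAT. Of the monocyte markers, 4 were called without WT replicate 2 or Zip13-KO replicate 3, 3 without Zip13-KO replicate 1 or 2, and 1 with slide position as a block. Of 12 tested neutrophil markers, 5 were called lower, beside 8.38% of all genes, with a median of -1.16. These were Mpo at -1.78 (limma adjusted p = 0.0161), S100a9 at -1.55 (adjusted p = 0.0329), S100a8 at -1.47 (adjusted p = 0.0411), Camp at -1.18 and Cxcr2 at -1.15. Mmp8 at -1.96 (limma adjusted p = 0.140) and Ngp at -1.84 (adjusted p = 0.159) were not called, nor were Elane at -0.03, Csf3r at 0.01 and Mmp9 at 0.38. Mmp8 and Ngp were well above background on 2 of the 3 Zip13-KO arrays. Zip13-KO replicate 1 was the lowest array for both, at 1.51 for Mmp8 and 3.25 for Ngp. Without any 1 WT array 2 neutrophil markers were called, without Zip13-KO replicate 2 only 1, and with slide position as a block 0. Their summed intensity was 80510 to 82333 in WT and 68715 to 71940 in Zip13-KO iWAT, of which Csf3r, the receptor for a neutrophil growth factor, made up 81.5%. Without Csf3r the sum was 18374 to 21658 in WT and 4549 to 11716 in Zip13-KO iWAT.

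Dendritic cells also carry several of these receptors. Of 9 tested dendritic cell markers, 2 were called lower, beside 8.38% of all genes. Irf8 at -0.87 (limma adjusted p = 0.00459) and Itgax at -0.86 (adjusted p = 0.0253) were called. Ccr7 at -0.66 (adjusted p = 0.0554) and Batf3 at -0.59 (adjusted p = 0.0850), by limma, were not. The count was 4 without WT replicate 1, 1 without WT replicate 3 or any 1 of the Zip13-KO arrays, and 0 with slide position as a block. The dendritic cell sum was 61623 to 66640 in WT and 48391 to 52408 in Zip13-KO iWAT, of which Siglech, at a difference of -0.03, made up 55%. Without Siglech the sum was 29525 to 35235 in WT and 16263 to 21444 in Zip13-KO iWAT.

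The genes through which the receptors signal include adaptors, kinases and phosphatases. Of the 18 genes in this list, 17 were tested, 10 were called lower and 0 higher, beside 8.38% and 10.3% of all genes. The median of the list was -0.66. With slide position as a block 0 were called. The adaptor Fcer1g, which Clec4d, Clec4e and Clec4n need, read 14.95, 14.54 and 14.16 in WT and 12.85, 12.63 and 13.12 in Zip13-KO iWAT, with no overlap. The difference was -1.69 (standard error 0.22, limma adjusted p = 0.00659), or 3.22-fold lower. Tyrobp, the adaptor of Clec5a, averaged 14.53 ± 0.25 (SD, n = 3) in WT against 13.04 ± 0.22 (SD, n = 3) in Zip13-KO iWAT, a difference of -1.48 (standard error 0.17, limma adjusted p = 0.00532). Hcst, the adaptor DAP10, fell by 0.63 (standard error 0.08, limma adjusted p = 0.00628).

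Among the enzymes behind the adaptors, Syk, the kinase that binds their phosphorylated tails, averaged 12.88 ± 0.15 (SD, n = 3) in WT against 11.89 ± 0.16 (SD, n = 3) in Zip13-KO iWAT, a difference of -0.99 (standard error 0.12, limma adjusted p = 0.00585). Prkcd, the protein kinase that phosphorylates Card9, fell by 0.92 (standard error 0.09, limma adjusted p = 0.00459). The exchange factors Vav1 and Vav3 fell by 0.84 (adjusted p = 0.00839) and 0.61 (adjusted p = 0.0104) in limma, and the lipase Plcg2 by 0.66 (adjusted p = 0.00715). The phosphatases that serve the inhibitory receptors moved the same way, Inpp5d by -0.77 (adjusted p = 0.00828) and Ptpn6 by -0.67 (adjusted p = 0.0103) in limma, while Ptpn11 was at 0.21 (adjusted p = 0.186).

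No gene of the steps from Card9 to the nucleus was called. Card9 was 5.12, 4.97 and 4.03 in WT and 3.62, 3.67 and 4.12 in Zip13-KO iWAT, where it was well above background on 1 array, and the genotypes overlapped (difference -0.90, limma adjusted p = 0.0667). Its partners Malt1 and Bcl10 were at -0.30 (adjusted p = 0.171) and -0.13 (adjusted p = 0.254) by limma. Nfkb1 was at -0.35 (adjusted p = 0.0238), short of the fold change threshold, and Rela at -0.23 (adjusted p = 0.0770) by limma. Vav2 was at -0.35 (limma adjusted p = 0.0838), and Rel was not tested.

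Of 16 cytokine and enzyme genes known as outputs of Syk and Card9, 12 were tested. Of these, 5 were called lower and 1 higher, beside 8.38% and 10.3% of all genes. The median was -1.72, or -1.42 with Cxcl2 at its bound. The chemokine gene Ccl2 averaged 12.58 ± 1.03 (SD, n = 3) in WT against 8.97 ± 0.56 (SD, n = 3) in Zip13-KO iWAT, a difference of -3.61 (standard error 0.55, limma adjusted p = 0.00819). Ccl3 averaged 8.28 ± 0.89 (SD, n = 3) in WT against 4.98 ± 0.17 (SD, n = 3) in Zip13-KO iWAT, a difference of -3.30 (limma adjusted p = 0.00634). Cxcl2, a chemokine for neutrophils, was well above background on every WT array and on no Zip13-KO array, and was at least 2.19-fold lower against the dimmest passing values of those arrays (limma adjusted p = 0.00943 for the fitted values). Ccl4 fell by 2.28 (limma adjusted p = 0.0198) and the anti-inflammatory cytokine gene Il10 stood at -1.99 (adjusted p = 0.00809). Il10 was well above background on 2 of the 3 Zip13-KO arrays, so its lower level was measured near background.

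The remaining outputs were mixed. Nos2, the inducible nitric oxide synthase, was higher in Zip13-KO iWAT, at 8.81 ± 0.22 (SD, n = 3) against 7.95 ± 0.05 (SD, n = 3), a difference of 0.86 (standard error 0.12, limma adjusted p = 0.00742). Il1b at -1.73 (limma adjusted p = 0.0588) and Cxcl1 at -1.70 (adjusted p = 0.181) were spread so widely that the genotypes overlapped. Tnf, the classical output, was at -0.43 (limma adjusted p = 0.153). With slide position as a block 0 outputs were called in either direction, and requiring a probe to be well above background on all 6 arrays left 3 called lower.

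C-type lectins outside the list were called in both directions. Of 43 such genes, 33 were tested, 6 were called lower and 3 higher, beside 8.38% and 10.3% of all genes, and the median was -0.21. Besides Clec4a4 and Clec4b1, the genes called lower were Mrc1, the macrophage mannose receptor, at -1.20 (limma adjusted p = 0.0284), Clec10a, a galactose-type lectin of macrophages and dendritic cells, at -1.14 (adjusted p = 0.0110), the endocytic receptor Ly75 at -0.91 (adjusted p = 0.00980) and Clec2i at -0.74 (adjusted p = 0.00490). Ly75 was well above background on 1 of the 3 Zip13-KO arrays, so its lower level was measured near background. Those called higher were Cd207, the langerin gene, at 1.03 (standard error 0.18, limma adjusted p = 0.0114), Clec2e at 0.96 (adjusted p = 0.00776) and Clec2d at 0.95 (adjusted p = 0.0153). Clec1b at -0.99 (adjusted p = 0.106) and Cd209g at -0.90 (adjusted p = 0.146), by limma, were not called. Mgl2, the brightest of the 33, was at -0.25 (limma adjusted p = 0.250), and its genotypes overlapped. With slide position as a block 0 of the 33 were called in either direction.

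**Figure D4:**
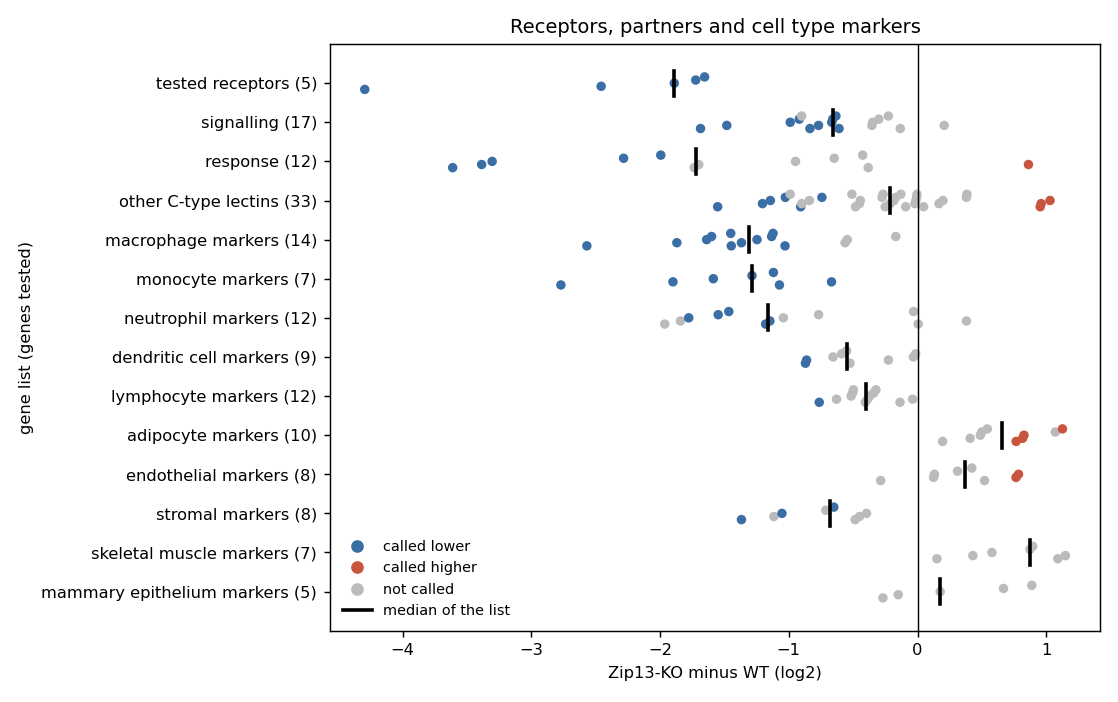
Difference between Zip13-KO and WT iWAT (log2) of every tested gene in the receptor list, the 3 lists of partners, outputs and relatives and the 10 lists of cell type markers, with the number of tested genes in brackets. Each point is 1 gene, blue if called lower, red if called higher and grey if not called, and the black bar is the median of the list (Cxcl2 is drawn at its fitted value, not its bound). The receptor median of -1.89 lies beside -1.72 for outputs, -1.31 for macrophage, -1.29 for monocyte, -1.16 for neutrophil, -0.66 for signalling and -0.21 for other C-type lectin genes.

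The tissue label was checked on the same arrays. The adipocyte genes Adipoq (adiponectin) and Fabp4 were bright in both genotypes, Adipoq with a mean of 16.68 ± 0.22 (SD, n = 3) in WT against 17.09 ± 0.08 (SD, n = 3) in Zip13-KO samples. Of 10 adipocyte markers, 4 were called higher and 0 lower, beside 10.3% and 8.38% of all genes, with a median of 0.65. Called were Pparg at 1.13, Plin1 at 0.83, Cebpa at 0.82 and Lipe at 0.77. Lep at 1.07 (limma adjusted p = 0.309) and Cidec at 0.54 were not called. The adipocyte sum was 423539 to 570328 in WT and 661937 to 700789 in Zip13-KO iWAT, opposite in direction to the receptor sum. The adipocyte count was 2 without WT replicate 1, 1 without WT replicate 3, Zip13-KO replicate 2 or Zip13-KO replicate 3, 0 without Zip13-KO replicate 1 and 0 with slide position as a block. Lymphocyte markers, which a lymph node in this depot would supply, had a median of -0.40. Called lower were 8.33% of them, beside 8.38% of all genes. This was 1 of 12, Ccl19 at -0.76 (limma adjusted p = 0.0137). Cxcl13 at -0.63 and Cd8a at -0.52 were not called. The lymphocyte sum was 65083 to 81069 in WT and 49875 to 54823 in Zip13-KO iWAT. The lymphocyte count was 2 without WT replicate 1, WT replicate 2 or Zip13-KO replicate 3, and 0 with slide position as a block.

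Markers of the remaining cell types had medians of -0.68 for stroma, 0.37 for endothelium, 0.87 for skeletal muscle and 0.18 for mammary epithelium. Called lower were 37.5% of the stromal markers, beside 8.38% of all genes, and all 8 had a difference below 0. Called higher were 25% of the endothelial markers, beside 10.3% of all genes. Of 8 stromal markers 3 were called lower (Ly6a at -1.37, Dpp4 at -1.05 and Pdgfra at -0.65), a count that was 1 without WT replicate 2, 7 without WT replicate 3, 0 without Zip13-KO replicate 1 or 2 and 0 with slide position as a block. Lum at -1.12 and Pi16 at -0.71 were not called. Of 8 endothelial markers 2 were called higher (Cldn5 at 0.78 and Cdh5 at 0.77), a count that was 1 without any 1 of the Zip13-KO arrays and 0 with slide position as a block. Emcn at 0.52 and Tie1 at 0.42 stayed under the fold change threshold. Of 7 tested skeletal muscle and 5 tested mammary epithelium markers 0 were called by limma, though 1 mammary marker was called higher without WT replicate 1. Their widest differences were 1.15 for Ckm, 1.09 for Myh4, 0.89 for Krt5 and 0.67 for Krt18. The part of any of these cell types in the receptor values was not tested.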

How the data were processed

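The arrays, 1 for each of 6 iWAT samples (3 WT, 3 Zip13-KO), were of the Agilent SurePrint G3 Mouse GE 8x60K design. The authors deposited the scanner output, per the file headers from Feature Extraction 11.5.1.1. It holds for each spot a raw median intensity and a processed intensity, from which background and spatial trends had been removed and which was not normalized between arrays. The authors also deposited a table of log2 intensities, quantile normalized from the raw median signal, which was used as an alternative.

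Control spots and outlier spots were dropped, log2 of the processed intensity was averaged over the spots of a probe, and arrays were quantile normalized. Probes were named through RefSeq accessions of GRCm38.p6 without their version: 28331 of 55681 probes had a symbol. Of 33047 kept probes 20319 had one, and the brightest stood for its gene. The 15307 genes were fitted with limma 3.58.1 in R 4.3.3 (lmFit and eBayes, p values adjusted by Benjamini-Hochberg), at the thresholds of the study's methods. The limma steps were tested on simulated data. An exact permutation test of 3 against 3 cannot give a two-sided p below 0.1. The number of arrays limits the precision.

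The listed receptors, the 13 other gene lists and the tests were chosen with earlier results of these data known. The genes named are the receptors, the tested genes of the signalling list, in each other list the 3 largest rises and falls among called genes and the 2 largest differences among the others, defining adipocyte markers, Slc39a13, the 3 profiles most like each receptor, and genes behind a count of 5 or fewer. A gene that this rule names is not reported here. Tnf, Clec2i, Ly75, Mgl2, Elane, Csf3r, Mmp9, Fn1 and Siglech fall outside this rule and were named after their values were seen.

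Replicate numbers of the 2 genotypes were not used to pair the samples in the main fit. The deviations of arrays with the same number correlated at -0.02, 0.04 and -0.08, and those with different numbers at -0.17 to 0.18. With 3 arrays per genotype these values cannot show whether samples were paired. Alternatives were another scaling, background corrections, filters, probe choices, tests and thresholds, a replicate block, slide position as a block, and the omission of single arrays. Normexp (offset 50) and the setting with no background correction used the raw median signal. A comparison of the receptor proteins was planned and not run, since no protein sequences were used here.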

Additional observations from a re-analysis of the deposited data

Results flagged for a closer look

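A pair of single arrays stood out among listed receptors that were too dim to be tested. Clec5a had a normalized log2 intensity of 3.80 on Zip13-KO replicate 1, where it was well above background, although it was above background on no WT array. Clec12a had a normalized log2 intensity of 5.75 on Zip13-KO replicate 2, again with no WT array above background. Each rests on 1 spot of 1 array, and neither was repeated on the other two Zip13-KO arrays.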

How the results depend on the processing

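The receptor differences were recomputed 90 times, 18 for each of the 5 receptors, and 0 changed direction. Each receptor had 1 probe, so other filters, probe choices, the robust prior and the replicate block left its difference unchanged by construction. The receptors were also selected on this difference, so nothing is read from this count. The number of receptors called lower stayed at 5 with each array left out, and was 4 at an adjusted p under 0.01. It was 0 with slide position as a block and 0 on the arrays of the first slide position alone, an alternative chosen after seeing the data that sets 3 WT arrays against Zip13-KO replicate 1. The lone array is there assumed to vary like the WT arrays. The cause of the loss was not tested beyond this construction, which leaves fewer samples. Low levels of Clec4d and Clec4e lie near background, which limits how well their differences are measured.

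With each array left out, the differences ran from -4.65 to -3.83 for Clec4d, -2.74 to -2.12 for Clec4e, -1.89 to -1.32 for Clec4n, -2.14 to -1.66 for Clec4a1 and -1.87 to -1.54 for Clec4a3. With normexp Clec4d was at -3.54 and Clec4e at -1.69. Clec4e was at -1.87 both with no background correction and with the deposited table, at -3.11 with slide position as a block and at -3.13 on the first slide position alone.

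Over all genes, 955 to 1670 were higher and 767 to 1475 lower with each array left out. The counts were 707 and 505 at an adjusted p under 0.01, 1007 and 721 with the methods' t-test after Benjamini-Hochberg, 0 and 7 with slide position as a block, and 16 and 8 on the first slide position alone.

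With each array left out, the markers and lists called lower numbered 3 to 6 for monocytes, 1 to 6 for neutrophils, 1 to 4 for dendritic cells, 1 to 2 for lymphocytes and 0 to 7 for stroma, and those called higher 0 to 6 for adipocytes, 1 to 3 for endothelium and 0 to 1 for mammary epithelium.

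At an adjusted p under 0.01, the genes called lower were 6 macrophage, 3 monocyte, 1 neutrophil, 1 dendritic cell, 0 lymphocyte and 0 stromal markers and 3 other C-type lectins, and those called higher 0 adipocyte and 1 endothelial markers and 1 other C-type lectin. With slide position as a block, 1 monocyte marker was called lower and 0 genes of any other list were called in either direction. On the first slide position alone, 1 monocyte and 2 neutrophil markers were called lower and 0 genes of any other list were called. With the methods' t-test after adjustment, 4 monocyte, 1 neutrophil, 1 dendritic cell and 0 stromal markers were lower, and 0 adipocyte and 1 endothelial markers higher. With no filter, 4 monocyte, 2 neutrophil and 1 dendritic cell markers were lower and 1 adipocyte marker higher. Scaling by the 75th percentile left 4 monocyte markers lower. Lymphocyte markers called lower were 2 with normexp, no background correction, the deposited table, and the intensity trend with a robust prior. Normexp left 1 other C-type lectin higher. With every kept probe as a feature, 17 macrophage and 3 lymphocyte probes were lower. A filter on all arrays left 3 outputs of Syk and Card9 lower. The replicate block left 3 neutrophil and 0 stromal markers lower, and 1 adipocyte and 1 mammary epithelium marker higher, and it changed no receptor call. The cause of these changes was not tested.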
